A study of Sus scrofa with 24 samples.

Results

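The translation factors described here are the initiation factors (eIF) and elongation factors (eEF) that load the ribosome onto an mRNA and move it along, measured in the longissimus dorsi muscle of pigs. They were taken as every gene whose symbol in the array annotation begins with EIF and a digit or with EEF1 or EEF2, apart from 3 symbols that the rule left out. Where a gene had more than 1 probe set, the set of oligonucleotides that measures a transcript, its brightest one, by the mean of all 24 arrays, stood for it. This gave 40 genes, out of 6765 genes with a probe set that carries exactly 1 symbol. Each of the 40 lay above the background of all 24 arrays, so none was lost to low signal.

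In initiation, eIF2 brings the initiator tRNA to the small ribosomal subunit, eIF3 and eIF1 hold that complex in shape and help it find the start codon, and the cap-binding eIF4 factors recruit the mRNA. The exchange factor eIF2B recharges eIF2, and kinases that phosphorylate eIF2 slow this step. In elongation, eEF1A delivers each aminoacyl-tRNA to the ribosome and the eEF1B complex recharges eEF1A. Skeletal muscle is a tissue in which a second eEF1A gene, EEF1A2, is known to take over from EEF1A1 after birth.

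The samples were RNA pools from German Landrace (DL) and Pietrain (Pi). Each breed was sampled before birth at 35, 63 and 91 days post conception (dpc) and once in adults, which makes 8 groups of 3 pools lettered a to c. No agent, diet or edited allele is named. The titles of all 6 pools at 35 dpc, and of no later pool, carry a letter K that the labels do not explain, so whatever it marks cannot be told apart from the 35 dpc stage. How many animals made up a pool is not stated, nor is the age of the adults, and the label text calls every sample peripubertal, the prenatal ones included. The p-values below therefore rest on how far pools of a group lie apart. No probe set carried EEF2, EEF2K, EEF1A2 or EIF4EBP1 as its only symbol, so these factors, and the pair of EEF1A1 with EEF1A2, were not analysed here.

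Values are log2 intensities on arrays that had been brought to 1 common distribution, so a change is one in standing among the probe sets of an array. The spread between pools was smallest at 35 dpc (residual SD 0.304 in DL and 0.358 in Pi) and largest in adults (0.674 and 0.808), while a single member's SD over 3 pools had a median of 0.07 to 0.15 in every group. As the groups share 1 estimate of spread, an SE can be too small for adults and too large at 35 dpc. Across 10 muscle markers the pools of 35 dpc averaged between 9.42 and 10.29, those of adults between 15.11 and 15.23. At 35 dpc TNNC2 was already at 14.89 in DL and 14.74 in Pi, while MYH2 was at 5.08 and 4.45. Markers of nerve tissue stood at 11.37 to 11.63 in all 6 pools at 35 dpc and at 2.62 to 3.88 in every later pool, where SNAP25 and SYT1 were at background in all 18 pools. In such bulk samples fewer cells of a type cannot be told apart from less RNA per cell. Liver genes stood apart in adult Pi pool b (10.45, against 3.74 and 4.09 in the other two) and in the 3 DL pools at 63 dpc (7.65 to 9.72, against 3.89 to 4.01 in Pi).

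Over development the 40 factors did not move as a block. Between 35 and 63 dpc 28 passed the test, 12 higher and 16 lower, between 63 and 91 dpc 11 passed, 3 higher and 8 lower, and between 91 dpc and adults 37 passed, 16 higher and 21 lower (limma, adjusted p under 0.05, both breeds averaged). Of all 24029 probe sets the share that passed was 44.2% for the first step, 18.3% for the second and 57.4% for the third. Taking only the brightest probe set of each gene, as was done for the factors, those shares were 54.5%, 26.6% and 66.9%. The members' changes were no larger than those of other genes: their median absolute log2 change was 0.41, 0.17 and 0.60 in the 3 steps, against 0.53, 0.26 and 0.78 over all genes. Few changes exceeded 2-fold, namely 4 in the first step, none in the second and 6 in the third. The median log2 change of the members was -0.11, -0.11 and -0.17, against 0.03, -0.01 and 0.08 for all genes.

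**Figure D1:**
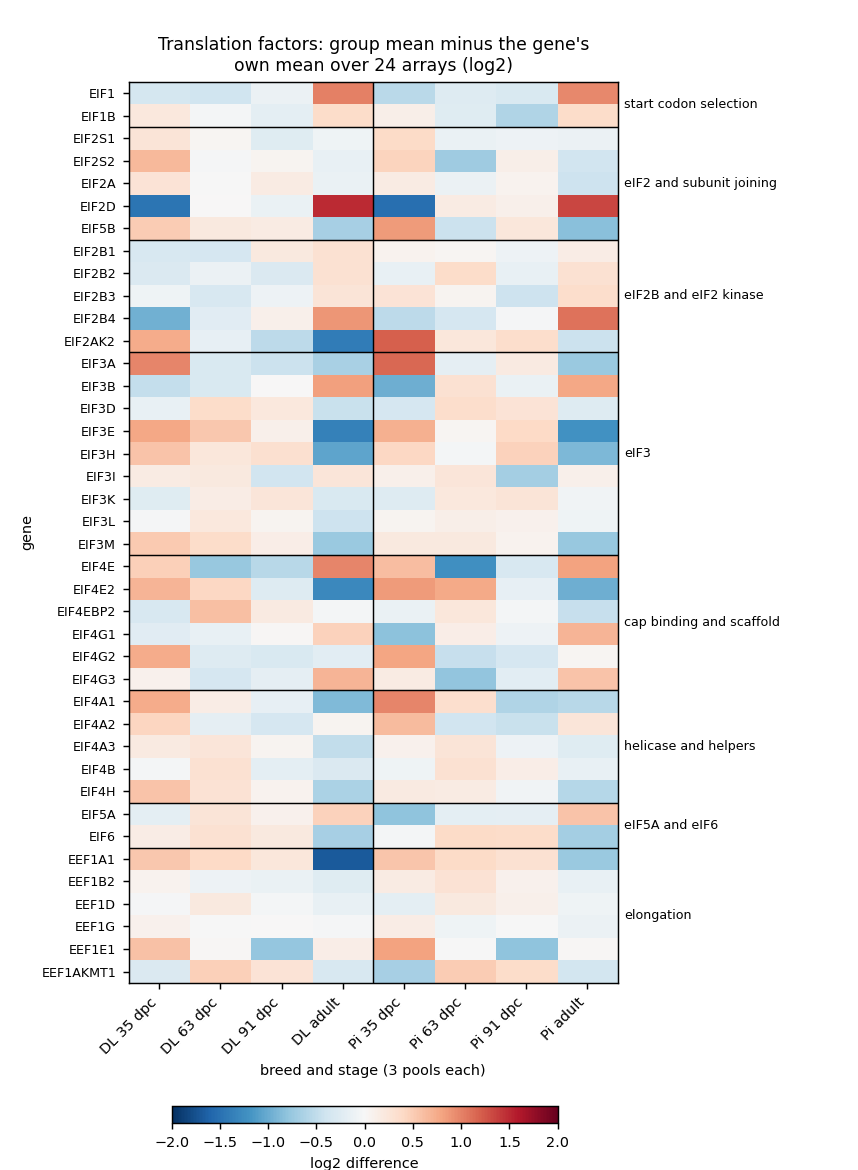
Colour map of the 40 translation factors (rows, ordered by role) in the 8 groups (columns, mean of 3 pools each): colour gives the group mean minus the gene's own mean over the 24 arrays, on the log2 scale. EIF1, EIF2D, EIF2B4 and EIF3B are red in both adult columns and EIF3E, EIF3H, EIF6 and EEF1A1 blue, while EIF3A, EIF4A1 and EIF4G2 are red in both 35 dpc columns.

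**Figure D2:**
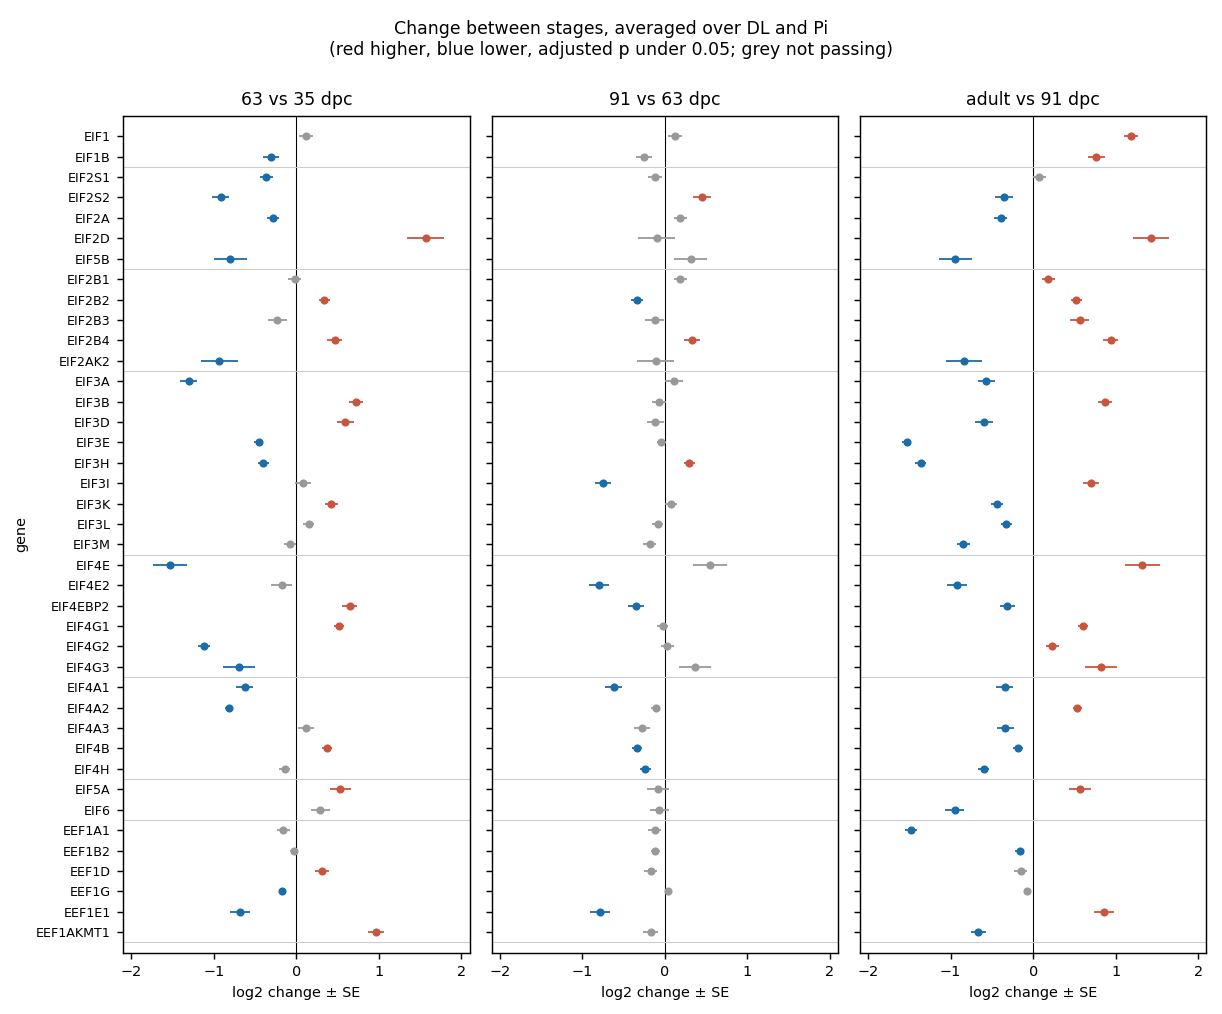
Log2 change of each of the 40 factors between successive stages, averaged over DL and Pi, with its standard error (horizontal bar). Red marks a rise and blue a fall with an adjusted p under 0.05, and grey marks no pass; 28, 11 and 37 of the 40 passed, and 10 of the 12 rises between 35 and 63 dpc turned into falls once arrays were put on the scale of their hybridisation controls.

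One scaling matters for the first step. When each array was shifted so that its spiked hybridisation controls had the same mean, all changes between 35 and 63 dpc moved by -0.81, and the members then counted 1 higher and 34 lower. Of all probe sets that passed, 50.4% were higher before this shift and 11.9% after it. A downward shift can turn none of the 16 fallers, and 10 of the 12 risers turned, all but EIF2D and EEF1AKMT1. A rise smaller than the size of that shift turns under that scaling, in the lists of other genes below too. For the later steps the shift was -0.15 and -0.20, which gave 0 higher and 13 lower for 91 against 63 dpc, and 14 higher and 23 lower for adults against 91 dpc. The share higher among all passing probe sets went from 48.6% to 31.0% and from 53.7% to 39.9% in these later steps. EIF2B1 was the 1 passing member that turned there. Nerve markers fell in the same step in which the 16 fallers fell, by a median of 9.47 with 8 of 8 passing, and muscle markers rose with the 12 risers, by a median of 3.52 with 10 of 10 passing. The part of either list in the members' changes was not tested. Measures of RNA integrity also moved between 35 and 63 dpc, as given below.

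The start-codon factors rose in adults. EIF1, which makes the scanning ribosome reject poor start codons, measured 14.22, 14.17 and 13.69 in the DL pools and 13.90, 13.59 and 14.04 in the Pi pools at 91 dpc. In adults it measured 15.14, 15.15 and 15.15 in DL and 15.13, 15.13 and 15.05 in Pi. All 6 adult pools lay above all 6 of 91 dpc, a rise of 1.19 ± 0.08 (SE of the limma fit, here and below; adjusted p = 8.88e-10), and a second EIF1 probe set rose by 2.14 ± 0.09. Its close relative EIF1B rose by 0.77 in the same step after a fall of 0.31 between 35 and 63 dpc.

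Among the eIF2 group, EIF2D had the widest range of group means of all 40 members, 3.0 on the log2 scale. EIF2D is a factor that can place tRNA on the ribosome outside the canonical route and helps to recycle ribosomes. Its DL pools measured 5.16, 5.0 and 5.57 at 35 dpc, 6.59, 6.19 and 7.32 at 63 dpc, 6.37, 6.30 and 7.03 at 91 dpc, and 8.63, 8.08 and 7.86 in adults. Pi pools followed, from 4.90, 4.85 and 5.81 at 35 dpc to 8.32, 8.10 and 7.68 in adults. It thus climbed in 2 jumps with a plateau between: 1.57 ± 0.22 from 35 to 63 dpc (adjusted p = 1.04e-05), -0.10 ± 0.22 from 63 to 91 dpc, which did not pass, and 1.43 ± 0.22 to adults (adjusted p = 2.04e-05). No pool of 1 side overlapped the other in either jump.

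Both measured subunits of eIF2 itself fell from 35 to 63 dpc. EIF2S2, the beta subunit, fell by 0.92 ± 0.10 between 35 and 63 dpc (adjusted p = 8.11e-07), rose by 0.45 to 91 dpc and fell by 0.35 to adults. EIF2S1, the alpha subunit that the eIF2 kinases phosphorylate, fell by 0.37 in the first step and had changes of -0.12 and 0.07 in the later ones that did not pass. EIF5B, the GTPase that joins the large ribosomal subunit, fell by 0.80 in the first step and by 0.95 ± 0.20 to adults (adjusted p = 5.04e-04), where the pools of both stages overlapped. EIF2A, which can carry initiator tRNA independently of eIF2, fell by 0.28 and 0.39 in these 2 steps. From 35 to 63 dpc the group thus had 1 higher and 4 lower of 5, and in adults 1 higher and 3 lower.

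All 4 measured eIF2B subunits were higher in adults than at 91 dpc, and the kinase was lower. EIF2B4, the delta subunit of this exchange factor, rose at every step in the mean of both breeds, by 0.46, 0.33 and 0.94 ± 0.09 (adjusted p = 8.16e-08 for the last). The first rise turned to -0.35 after scaling to the hybridisation controls. In that step the group mean of EIF2B4 went from 8.83 to 9.57 in DL, which passed, but from 9.27 to 9.45 in Pi, where the pools overlapped. It measured 8.81, 8.78 and 8.89 in the DL pools at 35 dpc and 10.66, 10.70 and 10.66 in DL adults, with 9.22, 9.35 and 9.23 and then 10.85, 10.74 and 11.04 in Pi. EIF2B3 and EIF2B2 rose to adults by 0.56 and 0.52, and EIF2B1 by 0.18, a rise that turned just below 0 after that scaling. EIF2AK2, the kinase PKR that double-stranded RNA activates, fell by 0.93 ± 0.22 from 35 to 63 dpc (adjusted p = 0.00181) and by 0.84 ± 0.22 to adults (adjusted p = 0.00332). Its pools overlapped in both steps, and its adult fall turned to 0.52 with a covariate for the GAPDH controls, described below. Of the other eIF2 kinases none had a probe set of its own symbol, and neither did EIF2B5.

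The 9 measured subunits of eIF3, the largest initiation factor, split in adults into 7 lower and 2 higher, and all 9 passed. Their median change was -0.57, against 0.08 for all genes. EIF3E led, with 12.76, 12.75 and 12.69 in the DL pools at 91 dpc and 11.23, 11.37 and 11.25 in DL adults. The Pi pools gave 12.93, 13.13 and 13.03 and then 11.38, 11.33 and 11.52. This is a fall of 1.53 ± 0.05, or 2.89-fold (adjusted p = 5.51e-14), with every adult pool below every pool of 91 dpc. EIF3H fell by 1.37 ± 0.07 (adjusted p = 4.08e-12), EIF3M by 0.85, EIF3D by 0.60, EIF3A by 0.57, EIF3K by 0.44 and EIF3L by 0.33. EIF3B, a core scaffold subunit, rose instead by 0.87 ± 0.08 (adjusted p = 5.50e-08), and EIF3I, which binds EIF3B in the complex, rose by 0.70. These 2 rises did not turn under the scaling to hybridisation controls, whose shift of -0.20 in this step can turn no fall.

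Earlier, the eIF3 subunits divided differently. From 35 to 63 dpc EIF3A, EIF3E and EIF3H fell, and EIF3B, EIF3D and EIF3K rose, rises that all turned to falls after scaling to the hybridisation controls. EIF3A, the largest subunit, showed the sharpest fall of the 9: its pools measured 12.54, 12.66 and 12.37 in DL and 12.51, 12.68 and 12.90 in Pi at 35 dpc, and 11.16, 11.40 and 11.14 in DL and 11.12, 11.52 and 11.46 in Pi at 63 dpc. The difference was -1.31 ± 0.11 (adjusted p = 9.64e-09) without overlap. From 63 to 91 dpc EIF3I fell by 0.75 ± 0.10 (adjusted p = 2.07e-05) and EIF3H rose by 0.30, and the other 7 subunits did not pass. The subunits EIF3C, EIF3F, EIF3G and EIF3J had no probe set that carries their symbol alone.

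**Figure D3:**
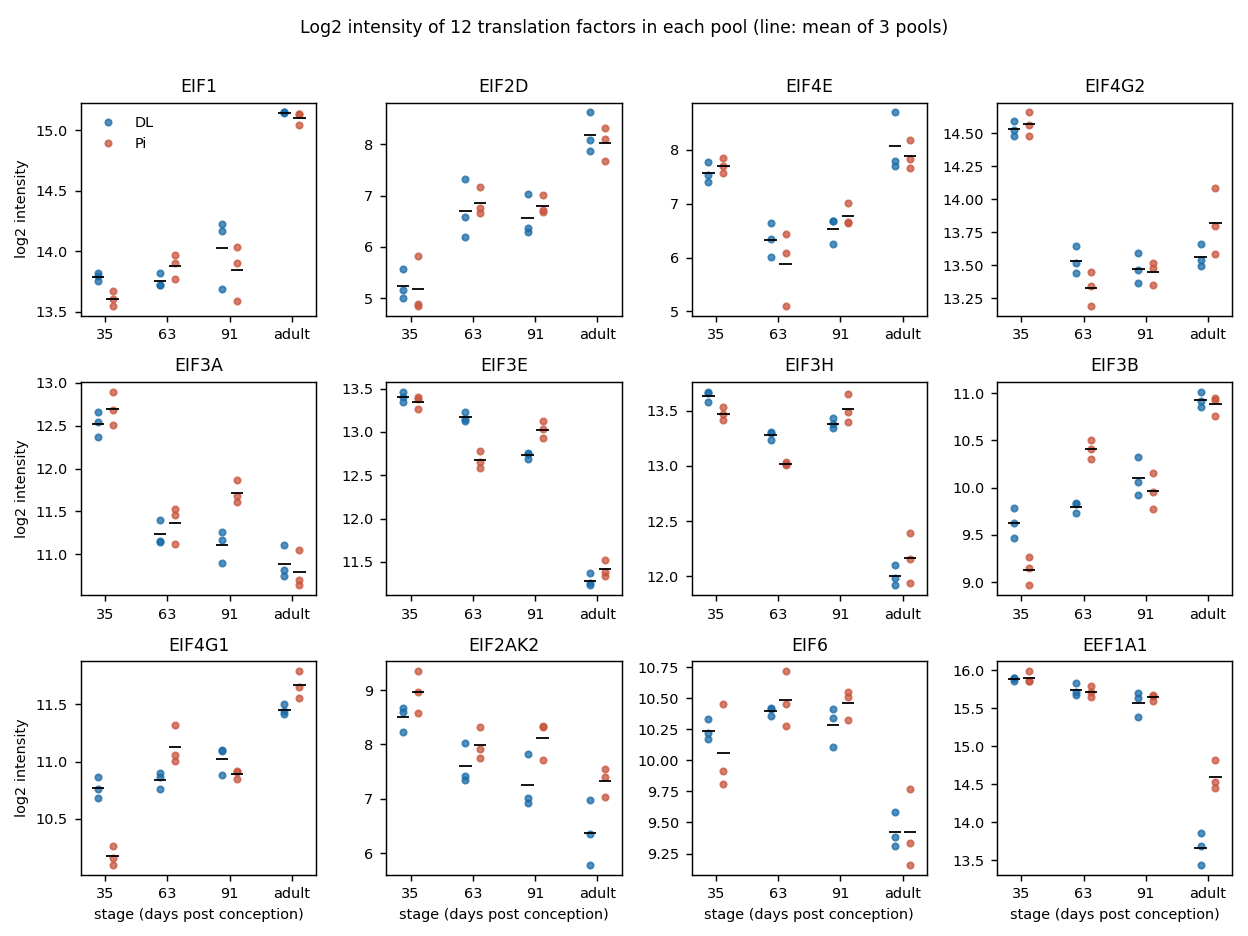
Log2 intensity (vertical axis, scaled for each gene) of 12 translation factors in each pool by stage (horizontal axis), DL in blue and Pi in red, with the mean of 3 pools as a line. EIF3E, EIF3H, EIF6 and EEF1A1 drop to the adult stage and EIF1 climbs, EIF4G2 and EIF3A drop after 35 dpc, EIF4E dips at 63 and 91 dpc, and EIF4G1 and EIF3B lie lower in Pi than in DL at 35 dpc, a difference that for EIF3B turned to 0.012 after scaling to the hybridisation controls.

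Of the factors that bind the cap or bridge it to the ribosome, the cap-binding protein EIF4E dipped and returned. Its pools at 35 dpc measured 7.76, 7.40 and 7.53 in DL and 7.84, 7.57 and 7.70 in Pi. At 63 dpc they measured 6.64, 6.34 and 6.02 in DL and 6.43, 5.10 and 6.08 in Pi, and in adults 7.71, 8.69 and 7.79 in DL and 8.19, 7.65 and 7.83 in Pi. The fall of 1.53 ± 0.21 from 35 to 63 dpc (adjusted p = 7.14e-06) was the largest fall of any member in that step. The change of 0.55 to 91 dpc did not pass, and the rise of 1.32 ± 0.21 to adults did (adjusted p = 2.62e-05). Neither passing change had overlapping pools.

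EIF4E2, a cap-binding relative that represses translation, fell in the later steps instead, by 0.80 ± 0.12 (adjusted p = 1.20e-04) and 0.92 ± 0.12 (adjusted p = 3.53e-06). Neither of its other 2 probe sets passed in these steps, and the mean over its 3 sets gave -0.67 and -0.36, neither of which passed. EIF4EBP2, which holds EIF4E back from the scaffold, rose by 0.65 ± 0.09 from 35 to 63 dpc (adjusted p = 1.15e-05), turning to -0.16 after scaling to the hybridisation controls, and fell by 0.35 and 0.31 in the later steps. Its 5 probe sets did not move alike in adults. The brightest and 1 other passed as lower, 2 passed as higher, by 0.75 and, in a set close to background outside DL adults, 1.42, and the mean over the 5 was 0.26. This faint set went from 2.87 to 5.63 in DL and from 2.30 to 2.38 in Pi.

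The scaffolds EIF4G1 and EIF4G3 were both higher in adults, by 0.60 ± 0.06 (adjusted p = 2.19e-07) and 0.82. EIF4G2, a scaffold relative that lacks the EIF4E-binding site, differed in its time: it measured 14.48 to 14.66 in the 6 pools at 35 dpc and 13.19 to 13.64 in the 6 at 63 dpc. The fall was 1.12 ± 0.08 (adjusted p = 1.02e-09), and later changes were small, 0.03 to 91 dpc and 0.23 to adults, of which the second passed. In adults the 6 genes of this group counted 4 higher and 2 lower.

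The helicase EIF4A1, which unwinds the leader of the mRNA, fell at every step, by 0.63 ± 0.10 (adjusted p = 6.32e-05), 0.62 ± 0.10 (adjusted p = 2.93e-04) and 0.34 ± 0.10 (adjusted p = 0.00884). In the third step its change was -0.72 in DL, which passed, and 0.04 in Pi, which did not, and the difference between the breeds missed the threshold (0.76 ± 0.21, adjusted p = 0.0607). Its near twin EIF4A2 also fell from 35 to 63 dpc, by 0.81 ± 0.05 (adjusted p = 3.23e-10), but rose by 0.53 to adults. Probe sets of such close relatives can share target sequence, and how far these do was not stated. EIF4B and EIF4H, which stimulate the helicase, and EIF4A3, the helicase relative of the exon junction complex, were all lower in adults, by 0.18, 0.60 and 0.34. A second EIF4B probe set went from 11.33 to 11.14 in DL but from 11.07 to 11.41 in Pi. The helicase and its helpers had, from 63 to 91 dpc, 3 lower (EIF4A1, EIF4B and EIF4H) and none higher of 5.

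EIF5A and EIF6 parted in adults. EIF6, which keeps the large ribosomal subunit from joining too early, measured 10.11 to 10.55 in the 6 pools at 91 dpc and 9.16 to 9.77 in the 6 adult pools. The fall was 0.95 ± 0.12 (adjusted p = 1.58e-06) with no overlap. EIF5A, which helps ribosomes over difficult stretches and carries the modified amino acid hypusine, rose by 0.56 ± 0.13 (adjusted p = 0.00122), with overlapping pools. It had also passed as higher from 35 to 63 dpc by 0.53 ± 0.13 (adjusted p = 0.00257), a rise that turned to -0.28 after scaling to the hybridisation controls.

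Among the elongation factors, EEF1A1 was lower in adults than before birth. By its brightest probe set it measured 15.86 to 15.99 in the 6 pools at 35 dpc, 15.65 to 15.83 at 63 dpc and 15.39 to 15.70 at 91 dpc. In adults it measured 13.69, 13.44 and 13.86 in DL and 14.53, 14.82 and 14.45 in Pi. Every adult pool lay below every earlier pool, and the fall from 91 dpc was 1.48 ± 0.08 (adjusted p = 1.28e-11). The changes of -0.16 and -0.12 between the prenatal stages did not pass. The prenatal values sit near the top of the scale, whose highest value is 16.10, and this probe set ranked between 2 and 251 on an array, so the scale leaves little room above them and neither the prenatal changes nor the size of the adult fall can be read exactly from it.

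That probe set is an Affymetrix control for eEF1A, and the 3 other EEF1A1 probe sets do not all move with it. The set with a mean of 6.80 fell in adults as well, by 2.26 ± 0.26. The sets with means of 9.53 and 6.79 had changes of -0.24 ± 0.12 and -0.60 ± 0.28 that did not pass. Both had instead risen from 35 to 63 dpc, by 0.80 and 1.17. The annotation holds 9 further probe sets under the symbol EF1ALPHA, an older name of the same factor that the rule does not match. The 3 brightest of these, with means above 15, all passed as lower in adults, by 1.23, 1.30 and 1.63, whereas of all 9 EF1ALPHA sets 5 passed as lower and 3 as higher. The falls of 1.23 and 1.30 come from sets of the same Affymetrix control as the brightest EEF1A1 set. Whether any of these probes also binds EEF1A2 mRNA is not given.

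**Figure D4:**
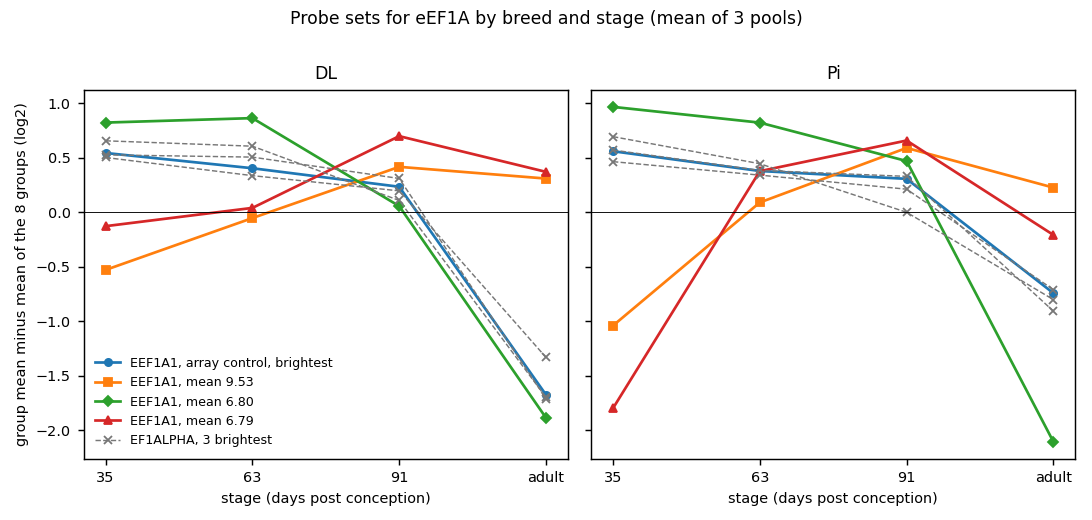
Probe sets annotated EEF1A1 (4, coloured) and the 3 brightest annotated EF1ALPHA (dashed grey), as the group mean minus the probe set's mean over the 8 groups (log2, vertical axis) by stage (horizontal axis), DL on the left and Pi on the right. The array control, the EEF1A1 set with a mean of 6.80 and the 3 EF1ALPHA sets drop to the adult stage, and the EEF1A1 sets with means of 9.53 and 6.79 rise from 35 to 91 dpc and stay within 1 log2 unit of that level. The EF1ALPHA sets with means of 15.33 and 15.13 belong to the same array control as the brightest EEF1A1 set.

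The eEF1B subunits, which recharge eEF1A, were the steadiest members on this scale. EEF1G ranked between 81 and 128 on an array and EEF1B2 between 52 and 134, near the top, where a rise has less room. EEF1G had the narrowest range of group means of all 40, 0.27, and EEF1D had 0.40. EEF1B2 fell by 0.17 to adults and EEF1G by 0.17 from 35 to 63 dpc, and EEF1D rose by 0.31 in that first step, turning to -0.50 after scaling to the hybridisation controls. EEF1E1, a scaffold protein of the tRNA synthetase complex despite its name, fell by 0.69 and 0.79 ± 0.12 before birth and rose by 0.86 ± 0.12 to adults (adjusted p = 7.10e-06), a rise that turned to -0.038 with the GAPDH covariate described below. EEF1AKMT1, an enzyme that methylates eEF1A, rose by 0.96 ± 0.10 from 35 to 63 dpc (adjusted p = 1.42e-07), and by 0.15 after that scaling, and fell by 0.66 to adults.

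Other measures moved with the adult step. The difference between the 3' and 5' probe sets of a GAPDH control, a sign of RNA integrity, was -0.61 to -0.39 in the 6 adult pools and 0.25 to 1.31 in the 6 pools at 91 dpc, so the groups did not overlap. The same difference for an actin control was 2.28 to 2.59 in adults. At 91 dpc it was 2.99 in DL pool c and 1.41 to 2.20 in the other pools, so the overlap rests on that 1 pool. With the GAPDH difference as a covariate, 18 instead of 37 members passed. Within groups this difference varied most at 91 dpc (SD 0.52 in DL and 0.25 in Pi, against 0.03 to 0.14 elsewhere). DL pool c stood at 1.16 there, against 0.28 and 0.25 in pools a and b. The covariate's slope thus leans on few pools and is extended to adults beyond the range of the other groups. Its counts and turned signs therefore do not measure the part of RNA integrity. Between 35 and 63 dpc such measures moved too. The actin one was 2.12 to 2.68 in the pools at 35 dpc and 1.21 to 1.55 at 63 dpc. A further GAPDH control gave 1.36 to 1.79 and then 0.89 to 1.14. For neither did the stages overlap, whereas for the GAPDH measure of the covariate they did (0.52 to 1.21 and 0.67 to 0.84). The part of the actin and further GAPDH measures in the changes of that step was not tested. Cell type markers moved in the step to adults as well. Those of dividing cells had 5 of 5 lower (median -5.58), endothelial ones 4 of 6 lower and 1 higher (-1.60) and erythroid ones 3 of 4 lower (-2.36), while immune ones had 3 of 4 higher (1.11) and muscle ones 8 of 10 higher and 1 lower (0.58). Their part in the adult changes was not tested. Leaving out adult Pi pool b, the pool with high liver genes, left 36 members passing.

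For the step from 35 to 63 dpc, 18 members passed within DL (32.2% of all probe sets and 40.3% of brightest sets did) and 25 within Pi (37.4% and 47.6%), and 16 passed alike in each breed. From 63 to 91 dpc 7 passed within DL (10.9% and 16.3%) and 9 within Pi (11.6% and 17.2%), 3 alike and 1, EIF3E, in opposite directions. From 91 dpc to adults 28 passed within DL (45.4% and 54.8%) and 33 within Pi (47.8% and 57.9%), 25 alike. DL and Pi steps are compared directly by the interactions below.

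Breed differences were few and changed from stage to stage. At 35 dpc 4 of the 40 passed, 1 higher and 3 lower in Pi, where 4.02% of all probe sets and 5.51% of the brightest sets of all genes passed. EIF4G1, the main cap scaffold, measured 10.86, 10.76 and 10.68 in the DL pools and 10.15, 10.26 and 10.10 in the Pi pools. It was lower in Pi by 0.60 ± 0.09 (adjusted p = 8.36e-04) and kept passing whichever pool was left out. Its other probe set, with a mean of 6.88, did not show this difference, with 6.39 in DL and 6.40 in Pi. EIF3B was lower by 0.50 ± 0.12 (adjusted p = 0.0221) and EIF4H by 0.39 ± 0.09 (adjusted p = 0.0236), and EIF2B1 was higher by 0.39 ± 0.11 (adjusted p = 0.0495). The EIF2B1 call was lost in 20 of the 24 fits that left out 1 pool.

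The count at 35 dpc moved with the scaling and with single pools. Pi hybridisation controls were lower at 35 dpc (9.94 to 10.14, against 10.40 to 10.64 in DL), and scaling to them moved every difference by 0.51, which left 23 members higher and none lower. Among all passing probe sets the share higher in Pi went from 40.1% to 98.1%. EIF3B and EIF4H then turned to 0.012 and 0.12, EIF4G1 was at -0.087 and EIF2B1 at 0.90. Without DL pool a or b, or without Pi pool c, 1 member passed, and without Pi pool a 2 did. Muscle markers were also lower in Pi at this stage (9.42 to 9.66, against 10.10 to 10.29), and their part was not tested.

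At 63 dpc 5 members passed, 3 higher and 2 lower in Pi, where 1.37% of all probe sets and 1.92% of the brightest sets passed. EIF3E was lower: the DL pools measured 13.23, 13.13 and 13.15 and the Pi pools 12.78, 12.65 and 12.58, a difference of -0.50 ± 0.08 (adjusted p = 0.00386) that passed whichever pool was left out. EIF2S2, with 11.07, 10.55 and 10.74 in DL and 10.13, 9.87 and 10.30 in Pi, was lower by 0.68 ± 0.15 (adjusted p = 0.0295). EIF3B was higher in Pi by 0.61 ± 0.12 (adjusted p = 0.0144), the opposite of its difference at 35 dpc. EIF2B2 was higher by 0.49 ± 0.10 (adjusted p = 0.0168) and EEF1B2 by 0.39 ± 0.07 (adjusted p = 0.0120). Scaling to the hybridisation controls, a shift of -0.12 that can turn no lower member, left 0 higher and 2 lower. This scaling turned none of the 3 higher ones. It took the share higher in Pi among all passing probe sets from 48.9% to 22.2%. Without DL pool a 1 member passed, without DL pool c or Pi pool a 2 did, and without Pi pool b or c 3 did. With only the arrays of 63 dpc in the limma fit 0 passed, with 12 at an unadjusted p under 0.05. The liver genes differed between the breeds at this stage without overlap, as given above, and their part was not tested.

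At 91 dpc 3 members passed, all higher in Pi, where 2.72% of all probe sets and 3.62% of the brightest sets passed. EIF3A measured 10.89, 11.16 and 11.26 in DL and 11.68, 11.86 and 11.61 in Pi, a difference of 0.61 ± 0.15 (adjusted p = 0.0365). EIF4B was higher by 0.33 ± 0.08 (adjusted p = 0.0418) and EIF3E by 0.29 ± 0.08 (adjusted p = 0.0471), which turned to -0.026 when arrays were scaled to the hybridisation controls. The second EIF4B probe set, with a mean of 11.24, went the other way, with 11.33 in DL and 11.07 in Pi. The EIF4B call was lost in 14 and the EIF3E call in 19 of the 24 fits that left out 1 pool. Without DL pool a or b or Pi pool b of this stage 0 members passed in the limma fit, with 7, 6 and 7 at an unadjusted p under 0.05, and with only the arrays of 91 dpc 0 passed, with 7 unadjusted. With the GAPDH covariate 0 passed too, with 5 unadjusted, and after leaving out dim probe sets 0, with 8 unadjusted. Leaving out 1 of 10 other pools left 1: Pi pool a of 91 dpc, any DL pool of 35 or 63 dpc, Pi pool c of 35 dpc, and Pi pool b or c of 63 dpc. Scaled to the hybridisation controls, 0 were higher and 9 lower, while the share higher in Pi among all passing probe sets went from 49.4% to 6.1%. Endothelial markers were lower in Pi here (8.23 to 8.32, against 8.88 to 9.30), and their part was not tested.

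In adults 2 members passed, both higher in Pi, where 6.33% of all probe sets and 6.96% of the brightest sets passed. EEF1A1 was higher by 0.93 ± 0.11, or 1.91-fold (adjusted p = 5.60e-05), and the pools did not overlap. It passed whichever pool was left out, and by 0.82 without Pi pool b. The 3 brightest EF1ALPHA probe sets were also higher in Pi adults, by 0.62, 0.80 and 0.90, while the other 3 EEF1A1 sets had differences of -0.08, -0.22 and -0.58, none of which passed. The differences of 0.62 and 0.90 come from sets of the same Affymetrix control as the brightest EEF1A1 set. EIF3L was higher by 0.33 ± 0.09 (adjusted p = 0.0439), a call lost in 15 of the 24 fits that left out 1 pool. The count was 1 without any 1 of 11 pools: DL adult a or c, Pi adult a, DL pool a of 91 dpc, any Pi pool of 63 dpc, any DL pool of 35 dpc and Pi pool c of 35 dpc. With only the adult arrays in the limma fit 0 passed, with 4 at an unadjusted p under 0.05. Scaled to the hybridisation controls, 1 member was higher and 2 lower, while the share higher in Pi among all passing probe sets went from 45.8% to 19.7%.

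EIF4EBP2, the EIF4E repressor, stood just outside. By its brightest probe set it was lower in adult Pi by 0.43 ± 0.13 (adjusted p = 0.0593), and of its 4 other sets 2 passed as lower, by 0.57 ± 0.14 (adjusted p = 0.0178) and by more in its faintest set (-3.25 ± 0.32, adjusted p = 8.83e-06). The mean of that faintest set over the arrays, 2.91, lies close to background, but it measured 5.63 in DL adults, against 2.38 in Pi adults. These sets were singled out after their values were seen.

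Averaged over the 4 stages, 5 members passed, 4 higher and 1 lower in Pi, with 6.29% of all probe sets and 7.85% of the brightest sets passing. EIF2AK2 was higher by 0.67 ± 0.16 (adjusted p = 0.0155). Its difference was 0.46, 0.39, 0.87 and 0.96 at 35, 63 and 91 dpc and in adults, and at no single stage did it pass. EEF1A1 was higher by 0.25 ± 0.05 (adjusted p = 0.0115), from differences of 0.016, -0.025 and 0.073 at the prenatal stages and 0.93 in adults, and it turned to -0.070 with its next brightest probe set. EEF1B2 was higher by 0.20 ± 0.04 (adjusted p = 0.00347) and EIF2B2 by 0.20 ± 0.05 (adjusted p = 0.0239). EIF2S2 was lower by 0.27 ± 0.07 (adjusted p = 0.0407), a call lost in 17 of the 24 fits that left out 1 pool. Of the 5, 1 passed when arrays were scaled to the hybridisation controls and 2 with the GAPDH covariate.

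**Figure D5:**
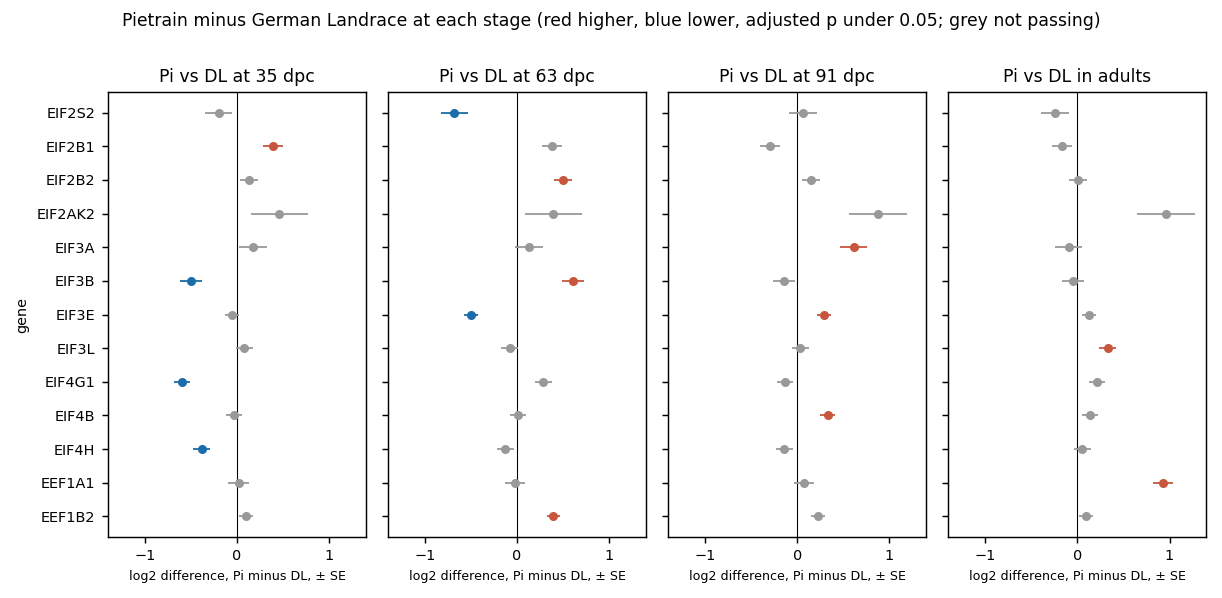
Log2 difference between Pi and DL (Pi minus DL, horizontal axis, with its standard error) at each of the 4 stages for the 13 factors that passed in at least 1 breed comparison. Red marks higher and blue lower in Pi with an adjusted p under 0.05; EIF3B and EIF3E each pass in opposite directions at 2 stages, with EIF3B at 35 dpc and EIF3E at 91 dpc losing their sign after scaling to the hybridisation controls.

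The interactions tested whether a step differed between the breeds. For 63 against 35 dpc 4 members passed, 2 in each direction, with 3.3% of all probe sets and 5.19% of the brightest sets passing. EIF3B rose by 0.17 in DL, which did not pass, and by 1.28 in Pi, an interaction of 1.105 ± 0.17 (adjusted p = 0.00126). EIF4G1 had 0.08 in DL and a rise of 0.96 in Pi, an interaction of 0.88 ± 0.13 (adjusted p = 0.00105). Its other probe set went the opposite way, from 6.39 to 6.54 in DL and from 6.40 to 6.12 in Pi. EIF3E fell by 0.23 in DL and 0.68 in Pi (-0.45 ± 0.11, adjusted p = 0.0296), and EIF4A2 fell by 0.61 and 1.02 (-0.40 ± 0.10, adjusted p = 0.0400). Scaling to the hybridisation controls shifted these interactions by -0.63, left 0 members positive and 20 negative, and took EIF3B to 0.48 and EIF4G1 to 0.25. The positive share among all passing probe sets went from 60.1% to 2.1% under it. Leaving out 1 of 7 of the 12 pools of these groups reduced the 4 to 2: pools a and c of DL and of Pi at 35 dpc, pool a of DL and pools b and c of Pi at 63 dpc.

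For 91 against 63 dpc 1 member passed, with 0.0916% of all probe sets and 0.0887% of the brightest sets passing. EIF3E fell by 0.44 in DL and rose by 0.36 in Pi, an interaction of 0.80 ± 0.11 (adjusted p = 0.0115), and the DL and Pi steps passed each in its own direction. It passed whichever pool was left out, but not with only these 4 groups in the fit, nor when arrays were scaled to the hybridisation controls (0.60). Without pool c of DL or of Pi at 91 dpc 2 members passed. For adults against 91 dpc 1 member passed, with 2.67% of all probe sets and 3.06% of the brightest sets passing: EEF1A1 fell by 1.91 in DL and 1.05 in Pi, an interaction of 0.86 ± 0.15 (adjusted p = 0.00608). This holds for its brightest probe set, and the next brightest gave -0.26. It did not pass with only these 4 groups in the fit or with the GAPDH covariate (0.68). Without adult DL pool b, adult Pi pool a or c, or Pi pool b of 35 dpc, 2 members passed.

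The lists of genes that act on these factors are short, and their counts stand beside 54.5%, 26.6% and 66.9% of the brightest sets of all genes that passed in the 3 steps. Of 10 listed genes of the stress response through eIF2, 8 were measured, and in adults 4 were higher and 1 lower, with a median of 0.93. ATF4, the transcription factor translated when eIF2 is phosphorylated, rose by 2.85 ± 0.08 (adjusted p = 2.09e-15) and DDIT3, which it induces, by 3.12 ± 0.33 (adjusted p = 1.73e-07). From 35 to 63 dpc 4 were higher and none lower, with ASNS, asparagine synthetase, up by 1.98 and PPP1R15A, which guides the phosphatase to eIF2, by 1.73. ASNS then fell by 2.18 and PPP1R15A rose by 1.28 to 91 dpc, when 2 were higher and 1 lower.

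Of 20 listed genes of mTORC1 signalling, the growth pathway that frees EIF4E, 9 were measured. From 35 to 63 dpc 5 were higher and 1 lower, led by the inhibitor TSC2 (1.72 ± 0.17) and by AKT1S1 (1.52 ± 0.09), an inhibitory subunit of the complex, and both rises exceed the size of the shift under scaling to the hybridisation controls. From 63 to 91 dpc 2 were higher and none lower, AKT1S1 by 0.89 and SESN1 by 0.46. In adults 4 were higher and 2 lower, with AKT2 up by 2.86 ± 0.61 and AKT1 down by 1.80 ± 0.15. Of 7 poly(A)-binding genes 4 were measured, and in adults 3 were higher and 1 lower: PABPC1, the main poly(A)-binding protein, fell by 2.09 ± 0.08 (adjusted p = 1.24e-13) and LARP4 rose by 1.64. In the first step PABPC4 rose by 0.85 and PAIP1 fell by 0.65, and in the second LARP4 rose by 0.45. Several genes of these lists share the stages with the members, and no set of genes was tested as a whole.

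Within the 24 arrays, which share stage and breed, the closest pair among the members was EIF3E and EIF3H (Pearson r 0.97), followed by EIF3B and EIF4G1 (0.95) and EIF3E and EIF3M (0.94). EEF1A1 ran with EIF3E at 0.92. The most opposed pairs were EIF1 with EIF3E (-0.96) and EIF1 with EIF3H (-0.93). These values describe the arrays and carry no test. Of 62 cytosolic ribosomal protein genes, measured on the same arrays, 52 were lower and 2 higher in adults, with a median of -0.68.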

How the data were processed

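RNA pools of pig muscle were hybridised to GeneChip Porcine arrays, 1 array per pool and 24 in all. The deposited values are log2 intensities of one-colour arrays. The submitters' processing notes name GCOS 1.1.1, and the sorted values of all columns are identical, so the authors brought the arrays to 1 distribution. The base of the logarithm was taken as 2 from the range of 1.60 to 16.10. How probes were summarised was not stated. Precision is set by how many arrays a group has and by the spread estimate that the groups share.

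Of 24123 probe sets, 24029 were tested, leaving out 94 array controls and keeping 30 controls that carry a pig gene symbol, among them the brightest EEF1A1 probe set. Symbols came from GEO's platform annotation, which can be old: 10099 tested probe sets had 1 symbol, 198 several and 13732 none, and genes were named from the first kind. limma 3.58.1 in R 4.3.3 fitted 1 mean per group to all arrays (16 residual degrees of freedom) with eBayes, and p-values were two-sided and adjusted by Benjamini-Hochberg within each of 11 comparisons at a threshold of 0.05. The fit was tested on simulated data. Plots came from matplotlib 3.10.9 (Python 3.11.15).

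Members and lists were chosen with earlier results of these data known. Named are EEF1A1, EIF4E, EIF4EBP2, EIF4G1, EIF5A, EIF6 and EIF2AK2, the 6 largest rises and falls of each step among those passing, every member that passed in a breed comparison or interaction, the member of widest range in each role, and the 2 genes of each list with the largest change in a step. Other members stand in the text to complete their role. The background of an array is the highest of 23 controls that have no target in the sample. Alternatives were a filter on dim probe sets, scaling to 27 spiked hybridisation controls, array weights, another prior, only the groups compared, the pool letter as a block, a GAPDH covariate, the mean of all probe sets of a gene, leaving out each array and the steps within each breed. Leaving out all control probe sets was added after seeing the data.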

Additional observations from a re-analysis of the deposited data

Results flagged for a closer look

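In 6 results a step between stages differed between DL and Pi by a test of the difference itself (limma interaction, adjusted p under 0.05). From 35 to 63 dpc these were EIF3B, an eIF3 scaffold subunit, with 1.105 (0.17 in DL and 1.28 in Pi), EIF4G1, the cap scaffold, with 0.88 (0.08 and 0.96), EIF3E with -0.45 (-0.23 and -0.68) and the helicase EIF4A2 with -0.40 (-0.61 and -1.02). EIF3E differed again from 63 to 91 dpc, with 0.80 (-0.44 in DL and 0.36 in Pi). EEF1A1 differed from 91 dpc to adults, with 0.86 (-1.91 and -1.05). The EIF3B, EIF4G1 and second EIF3E results, and that of EEF1A1, passed whichever pool was left out, whereas the first EIF3E result was lost in 7 and EIF4A2 in 13 of 24 such fits. Under other settings the second EIF3E result was lost with scaling to the hybridisation controls and with only the groups compared. That of EEF1A1 was lost with only the groups compared and with the GAPDH covariate, and turned to -0.26 with control probe sets left out and to -0.14 with the mean of its probe sets. EIF3B (0.48) and EIF4G1 (0.25) did not pass after the scaling, nor EIF4G1 with the mean of its probe sets (0.23). The first EIF3E result and EIF4A2 were lost with the filter on dim probe sets and with the GAPDH covariate, and EIF4A2 also with the replicate block.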

How the results depend on the processing

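Counts of members passing are given first. Between 35 and 63 dpc the step within DL gave 18 instead of 28, and from 63 to 91 dpc 7 instead of 11. For adults against 91 dpc the GAPDH covariate gave 18 instead of 37. For the breeds at 35 dpc 4 became 2 with the filter on dim probe sets, with the GAPDH covariate and with the mean of all probe sets, 9 with array weights, which ran from 0.329 for adult Pi to 2.30 for DL at 35 dpc, and 23 with scaling to the hybridisation controls. At 63 dpc 5 became 2 with that scaling and 0 with only the groups compared. At 91 dpc 3 became 0 with the filter, only the groups compared and the GAPDH covariate, and 9 with the scaling. In adults 2 became 1 with the filter, array weights, the replicate block and all control probe sets left out, and 0 with only the groups compared. Averaged over stages 5 became 3 with the filter, 1 with the scaling and 2 with the GAPDH covariate. The interaction for 63 against 35 dpc went from 4 to 2 with the filter and the GAPDH covariate, 9 with array weights and 20 with the scaling. That for 91 against 63 dpc went from 1 to 0 with the scaling (limma, 11 at an unadjusted p under 0.05) and with only the groups compared (12 unadjusted). That for adults against 91 dpc went from 1 to 2 with the trended prior and the mean of all probe sets, and to 0 with only the groups compared (4 unadjusted), the GAPDH covariate (5 unadjusted) and the controls left out (5 unadjusted).

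Signs turned for some named members. Scaling to the hybridisation controls, from 35 to 63 dpc, gave EIF3B -0.085, EIF4EBP2 -0.16, EIF3D -0.22, EIF5A -0.28 and EIF4G1 -0.29, and between breeds EIF3B 0.012 and EIF4H 0.12 at 35 dpc and EIF3E -0.026 at 91 dpc. For adults against 91 dpc the GAPDH covariate gave EEF1E1 -0.038 and EIF2AK2 0.52, the mean of all probe sets gave EIF4EBP2 0.26, and the step within Pi gave EIF4A1 0.038. With control probe sets left out EEF1A1 was at -0.083 between breeds in adults, -0.070 averaged over stages and -0.26 in the adult interaction, and the mean of its probe sets gave -0.059 and -0.14 for the last pair. The cause of these changes was not tested.

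Leaving out each array in turn gave 28 to 30, 11 to 13 and 36 to 38 members for the 3 steps. For the breeds it gave 1 to 5 at 35 dpc, 1 to 5 at 63 dpc, 0 to 4 at 91 dpc, 1 to 2 in adults and 4 to 6 averaged, and for the interactions 2 to 4, 1 to 2 and 1 to 2. Of the 41 named step results 40 never lost their call, against 11 of 25 named breed and interaction results. Pools of the same letter did not deviate together on average (mean r -0.002, from -0.078 to 0.091 over 84 pairs, against 0.001 over 168 pairs of other letters). Deviations within a group cancel out and r spans all probe sets, so this cannot tell whether some pools share a batch. The replicate block gave 28, 11 and 36 members for the steps.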

Other observations

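For other parts of the translation machinery, the counts stand beside 54.5%, 26.6% and 66.9% of the brightest sets of all genes passing in the 3 steps. Of 22 listed genes of the cytosolic tRNA synthetases and their scaffold 17 were measured, with 6 higher and 5 lower from 35 to 63 dpc (NARS by -1.04 ± 0.11 and LARS by -0.98 ± 0.09), 1 higher and 1 lower from 63 to 91 dpc (HARS by -0.44 ± 0.14, while DARS at 0.48 ± 0.20 did not pass), and 6 higher and 5 lower in adults, where SARS rose by 1.66 ± 0.08 and AIMP2 by 1.59 ± 0.12 (limma). Of 9 mitochondrial translation factors 6 were measured, with 2 higher and 3 lower in the first step, 2 higher and none lower in the second, and 3 higher and none lower in adults. TUFM, the mitochondrial counterpart of eEF1A, rose by 1.20 ± 0.09 and then by 0.38, GFM1 rose by 0.57 ± 0.16 to 91 dpc, and TSFM rose by 1.14 ± 0.10 to adults. MTRF1, a mitochondrial release factor, fell by 1.64 ± 0.25, had -0.56 ± 0.25 in the second step, which did not pass, and rose by 2.95 ± 0.25 to adults.

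Of 8 listed genes that make hypusine on eIF5A or diphthamide on eEF2, 3 were measured. DHPS, which starts the hypusine of eIF5A, rose at each step, by 0.51 ± 0.10, 0.56 ± 0.10 and 1.72 ± 0.10, the first of these smaller than the shift that scaling to the hybridisation controls gives that step. DPH3 fell by 0.57 ± 0.12, had 0.27 ± 0.12 and rose by 0.95 ± 0.12. Of 7 genes of termination and recycling 1 was measured, NEMF, with -0.63 and -0.20 and then a fall of 1.60 ± 0.38 in adults.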
